A study of Mus musculus with 18 samples.

Results

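The Notch receptors, their ligands, the DNA-binding effector of the pathway and the Hes genes Hes1 and Hes6 were followed through 18 RNA-sequencing libraries of mouse duodenal epithelium. The set held 10 genes picked by name, Notch1, Notch2, Notch3, Dll1, Dll4, Jag1, Jag2, Rbpj, Hes1 and Hes6, out of 17759 genes listed for crypts, 17423 for day 1 enteroids and 17612 for day 3 enteroids. All 10 were listed in each table. A gene was tested where its normalized counts averaged 10 or more over the 6 libraries of a table, which kept 9 of 10 in crypts (Notch3 fell below that level) and 10 of 10 on both enteroid days. The mice were WT (Mtgr1+/+) or Mtgr1 null (Mtgr1-/-, lacking the transcriptional corepressor MTGR1 in the whole animal and not in the epithelium alone). The study describes its mice as age-matched littermates, male and female. Crypts of 3 mice of each genotype were lysed fresh (day 0) or plated in Matrigel as enteroids, self-organizing epithelial cultures, in medium with EGF, Noggin and R-spondin. Enteroids were collected 24 h (day 1) or 72 h (day 3) after plating, so each mouse gave 3 libraries and each group of genotype and time held 3 mice. A p-value here therefore measures the spread between mice of a group.

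Notch receptors are cut when a Delta or Jagged ligand on a neighbouring cell binds them, and the freed intracellular part enters the nucleus and joins RBPJ to switch on targets such as Hes1. In the crypt, cells with active Notch are kept as stem cells or directed toward the absorptive lineage, while cells that display Delta ligands become secretory, because HES1 represses Atoh1, the master regulator of secretory fate. Paneth and other secretory cells are known as a source of Dll1 and Dll4 for the crypt base stem cells.

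Mtgr1 is listed under its symbol Cbfa2t2, and the genotype difference in its normalized count did not pass the threshold at any time. On day 1 it was nonetheless higher in Mtgr1 null without overlap, at 788.3, 710 and 757 in WT and 1160, 1008 and 788.6 in Mtgr1 null (log2 fold change 0.37). In crypts the groups overlapped, at 614, 523 and 595 in WT and 697, 466 and 534 in Mtgr1 null mice 1, 2 and 3. The adjusted p of Cbfa2t2 was 0.917 in crypts, 0.0557 on day 1 and 0.686 on day 3. A count over the whole gene cannot show a deletion of some of its exons, and the extent of the deletion is not given in the sources used here, so this count neither checks nor contradicts the labels. Genotypes are given as labelled. Recovered read totals ran from 22035316 to 29661084 per library. Epithelial markers were high in every library (8 of 8 listed genes tested at each time), and their summed normalized counts were larger in Mtgr1 null, at 212960 to 250900 in WT and 252530 to 305460 in Mtgr1 null crypts, 211650 to 273570 and 311900 to 432650 on day 1, and 151260 to 167090 and 291260 to 308320 on day 3. Of the 8, 1, 5 and 7 were called higher in time order, and 1, 2 and 5 with libraries scaled to equal totals. In crypts, the library of WT mouse 3 stood apart by a sum of 7083 over 7 leukocyte markers, against 719 and 667 in the other WT crypts and 242 to 829 in Mtgr1 null crypts. Its endothelial sum was 230 against 49.5 to 78.3 in the other 5 crypt libraries, over 6 of 8 listed genes, with Emcn and Cldn5 not listed. Fibroblast markers summed to 71.4 in that library against 9.58 and 2.97 in the other WT crypts, and to 45.7 in Mtgr1 null crypt mouse 3 against 0.942 and 2.85 in the other Mtgr1 null crypts. Mural markers summed to 77.1 in WT crypt mouse 3 and 10.9 to 59.97 in the other 5 crypt libraries. Among Mtgr1 null crypts, mouse 2 stood apart by 42558 over 6 Paneth markers, against 1768 and 1335 in the other 2 and 122500 to 156230 in WT.

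The promoters of 4 members are printed because Dll4, Notch1 and Rbpj were lower in Mtgr1 null enteroids of both days and Jag1 was higher on day 3. RefSeq windows (GRCm38.p6, 250 bases before to 50 after an annotated start, written 5′ to 3′ on the gene's strand) were found for 9 of 10 members. Hes1 had no entry. Capitals mark matches on either strand to the RBPJ core TGGGAA, the HES N-box CACNAG, the TCF site CTTTGAT and the E-box CAGCTG. They are Dll4 at chr2:119325534-119325833 on the plus strand, Notch1 at chr2:26503773-26504072 on the minus strand, Rbpj at chr5:53590096-53590395 on the plus strand and Jag1 at chr2:137116471-137116770 on the minus strand.
Dll4: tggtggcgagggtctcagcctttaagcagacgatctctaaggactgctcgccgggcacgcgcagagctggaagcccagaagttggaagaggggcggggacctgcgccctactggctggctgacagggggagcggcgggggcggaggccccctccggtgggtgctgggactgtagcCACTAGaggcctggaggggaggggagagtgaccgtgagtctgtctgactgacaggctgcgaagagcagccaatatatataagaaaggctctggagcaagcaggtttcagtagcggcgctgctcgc
Notch1: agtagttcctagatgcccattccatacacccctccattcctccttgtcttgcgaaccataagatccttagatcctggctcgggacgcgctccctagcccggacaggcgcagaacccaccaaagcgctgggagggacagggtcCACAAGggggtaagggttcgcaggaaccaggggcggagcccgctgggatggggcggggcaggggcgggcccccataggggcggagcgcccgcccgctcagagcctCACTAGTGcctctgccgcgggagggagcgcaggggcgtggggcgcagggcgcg
Rbpj: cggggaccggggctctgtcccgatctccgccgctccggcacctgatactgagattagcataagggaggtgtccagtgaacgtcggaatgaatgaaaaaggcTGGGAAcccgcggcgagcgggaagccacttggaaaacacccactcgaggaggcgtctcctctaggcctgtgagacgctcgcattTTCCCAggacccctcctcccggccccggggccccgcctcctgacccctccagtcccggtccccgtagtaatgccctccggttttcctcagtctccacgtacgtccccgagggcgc
Jag1: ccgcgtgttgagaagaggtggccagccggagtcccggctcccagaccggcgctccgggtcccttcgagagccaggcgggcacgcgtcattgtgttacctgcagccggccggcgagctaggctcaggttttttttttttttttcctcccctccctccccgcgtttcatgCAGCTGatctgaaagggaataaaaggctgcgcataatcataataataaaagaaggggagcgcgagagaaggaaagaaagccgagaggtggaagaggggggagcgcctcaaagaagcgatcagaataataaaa
The Dll4 window held an N-box beginning 75 bases before the start. Notch1 held 3, beginning 108, 3 and 1 bases before it, of which the last 2 overlap each other on opposite strands. Rbpj held RBPJ cores beginning 149 and 65 bases before its start, and Jag1 an E-box beginning 82 bases before its start. The 9 members had 12 windows, since Dll1, Hes6 and Rbpj have 2 each. Of the 12, the RBPJ core was found in 2, the N-box in 6, the E-box in 4 and the TCF site in 0. Both windows with the RBPJ core are those of Rbpj, which overlap. Of 32851 mouse windows of the same length, 25.6%, 42.5%, 16.3% and 3.73% held them, in that order. A match is a description of letters and not a bound site, and its absence covers this window only.

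In GRCm38 the receptors lie at chr2:26457903-26516663 (Notch1), chr3:98013527-98150361 (Notch2) and chr17:32120820-32166852 (Notch3). The ligands lie at chr17:15367354-15376872 (Dll1), chr2:119325784-119335962 (Dll4), chr2:137081456-137116644 (Jag1) and chr12:112907819-112929776 (Jag2). Rbpj lies at chr5:53466152-53657362, Hes1 at chr16:30064384-30067796 and Hes6 at chr1:91411483-91414038. Counts are per whole gene, and Notch1, Notch3, Dll1, Dll4 and Rbpj each overlap an annotated noncoding gene on the other strand.

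Within the pathway the transcripts differed widely in level. Divided by the total length of annotated exons, the level in WT crypts was highest for Hes6 (458 to 503 normalized counts per kb) and Hes1 (347 to 426), followed by Dll1 (209 to 217). Dll4 (72.9 to 111) and Rbpj (69.8 to 78.2) overlapped in level. Jag1 (60.5 to 63.7), Notch1 (35.5 to 68.9) and Notch2 (36.5 to 57.3) overlapped too, above Jag2 (7.84 to 18.7) and Notch3 (0 to 2.70). By mean level per kb Dll4 ranked 4 among the 10 in WT crypts and 6 in Mtgr1 null crypts, and 9 in Mtgr1 null enteroids of both days against 5 and 7 in WT. On a scale shared by the 3 tables, recovered reads as CPM of the library, WT Hes1 was 30.6 ± 2.95 in crypts, 45.5 ± 11.6 on day 1 and 73.7 ± 6.41 on day 3 (SD, n = 3 each). Mtgr1 null Hes1 was 28.4 ± 4.05, 19.7 ± 7.81 and 36.0 ± 6.08. WT Notch1 ran 28.3 ± 9.14, 34.8 ± 5.11 and 54.8 ± 2.17, whereas WT Dll4 was 13.7 ± 3.13, 12.9 ± 3.12 and 12.6 ± 0.847. These levels across time are a description, and no test of 1 genotype between times was made.

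**Figure D1:**
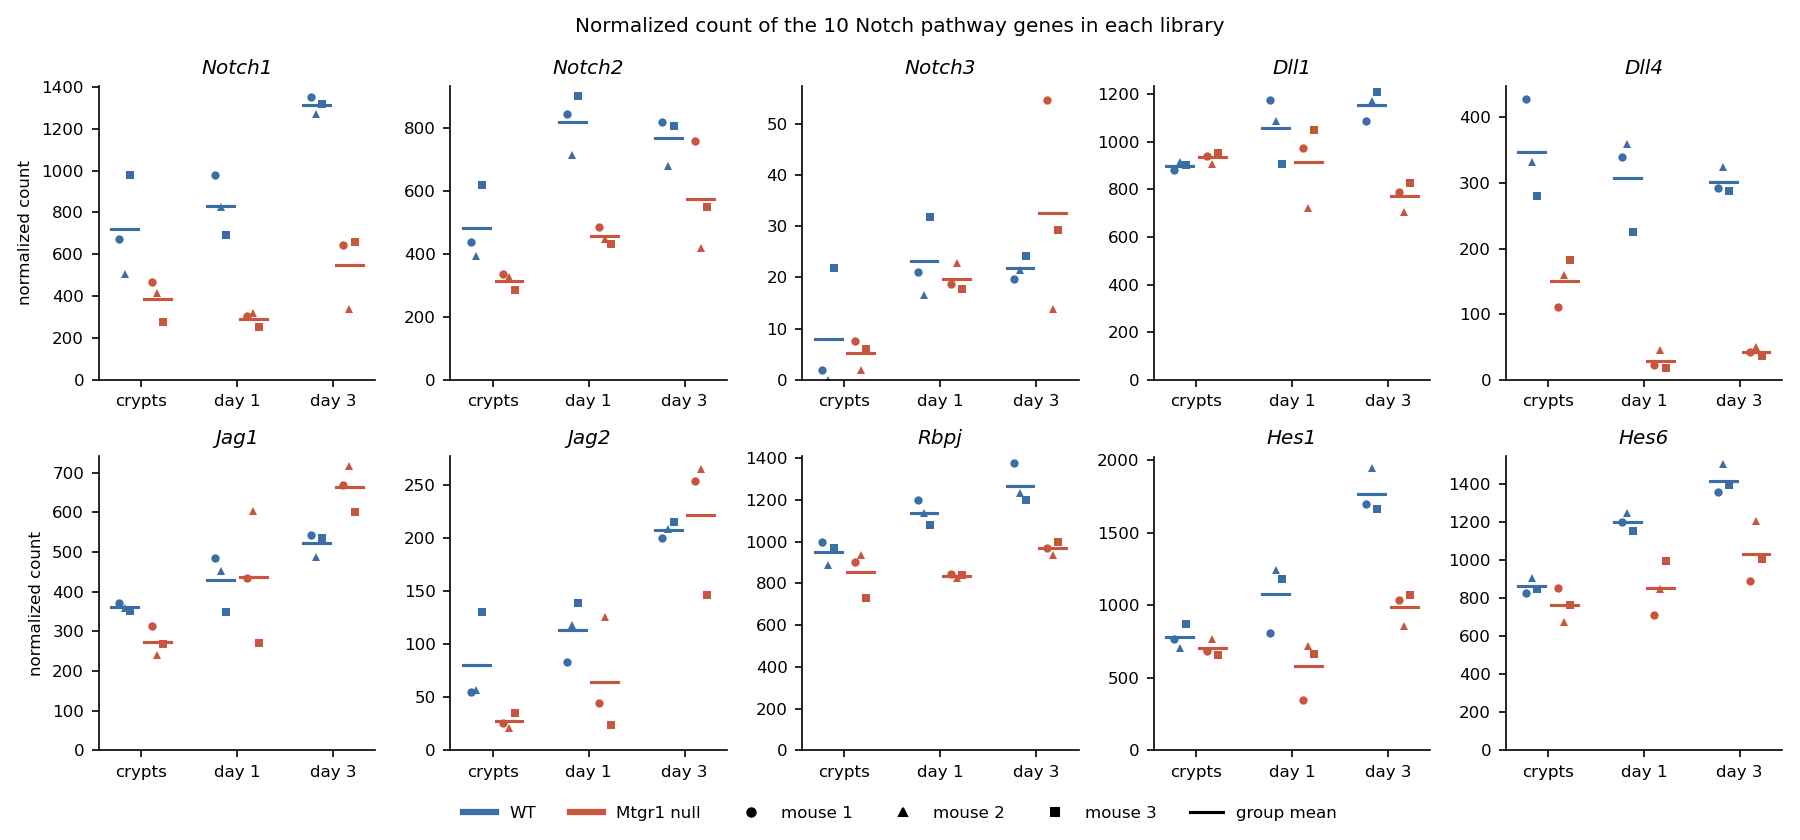
Normalized count (vertical axis, from 0) of each of the 10 genes by time point, with WT in blue and Mtgr1 null in red, a point per library shaped by mouse number and a bar at the mean of 3. The Mtgr1 null points of Dll4 lie below all WT points at each time, 111 to 183 in crypts and 18.8 to 49.7 in enteroids, while those of Dll1 separate from WT on day 3 and not in crypts.

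The question at each time was whether loss of MTGR1 altered the pathway's transcripts. In crypts, 1 of 9 members tested was lower in Mtgr1 null at an adjusted p below 0.05, against 3.15% of all genes. That share was 0.929% and 1.08% without WT mouse 1 or 2, 1.69% and 2.07% without Mtgr1 null mouse 1 or 3, and 8.61% with array weights. None was higher, against 1.58% of all genes (limma, 0 at an unadjusted p below 0.05, and 0 by edgeR and by DESeq2 on recovered reads). Groups did not overlap for 5 of 9, all lower in Mtgr1 null, against 25.5% of all genes in either direction. On day 1, 6 of 10 were lower (28.9% of all genes) and 0 of 10 higher (30.0% of all genes, again 0 at an unadjusted p below 0.05, by edgeR and by DESeq2). Groups did not overlap for 6 of 10 (68.1% of all genes). On day 3, 6 of 10 were lower (29.1% of all genes) and 1 of 10 higher (29.9%), with no overlap for 7 of 10 (68.8%). The median log2 fold change of the members tested was -0.40, -0.67 and -0.46 in time order, beside 0.0076, -0.0080 and 0.0026 over all genes. These medians are descriptions of genes picked by name. Libraries are bulk, so a lower count cannot tell fewer cells of a type from less RNA per cell.

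The scaling of the libraries bears on small differences. In enteroids the deposited factors gave Mtgr1 null libraries larger totals than WT, and scaling to equal totals moved the median log2 fold change of all genes to -0.33 on day 1 and -0.20 on day 3. Under it, all genes split into 2206 higher and 5588 lower on day 1, in place of 3776 and 3637, and into 2755 and 5081 on day 3, in place of 3826 and 3719. The members split into 0 higher and 7 lower on each day. This alternative was chosen after the data had been seen, and members whose call it changed are named with their values.

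Among the receptors, Notch1, the main receptor of crypt stem cells together with Notch2, was lower in Mtgr1 null enteroids of both days. Crypts gave 674, 506 and 981 normalized counts in WT and 466, 415 and 278 in Mtgr1 null mice 1 to 3. Day 1 enteroids gave 979, 825 and 691 against 307, 318 and 251. Day 3 enteroids gave 1349, 1268 and 1318 against 643, 338 and 660. Every Mtgr1 null library lay below every WT library at all 3 times, and the highest crypt value was in the WT mouse 3 library with the leukocyte transcripts. Notch1 was lower on day 1 (log2 fold change -1.50, 95% CI -1.87 to -1.13, adjusted p = 0.000308) and on day 3 (-1.32, CI -1.86 to -0.78, adjusted p = 0.00197). In crypts the difference of -0.88 (CI -1.55 to -0.20) had an adjusted p of 0.157, and it was -0.63 (adjusted p = 0.276) without WT mouse 3. By DESeq2 on recovered reads it passed in crypts, with -0.91 and an adjusted p of 0.0353.

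Notch2 counts were 438, 394 and 618 in WT crypts and 335, 325 and 285 in Mtgr1 null crypts. Day 1 counts were 843, 712 and 902 against 486, 449 and 432. The groups stood apart at both times, and the day 1 difference passed (log2 fold change -0.84, CI -1.11 to -0.56, adjusted p = 0.000891). The crypt difference of -0.59 (CI -1.03 to -0.15) did not, with an adjusted p of 0.144. On day 3 the counts were 817, 680 and 804 against 759, 418 and 548, and Mtgr1 null mouse 1 lay within the WT range. That difference was -0.45 (CI -0.92 to 0.0091, adjusted p = 0.0829). Without Mtgr1 null mouse 1 it was -0.68 (adjusted p = 0.0055), and scaled to equal totals -0.65 (adjusted p = 0.0411). Notch2 per 100 Notch1 counts, a ratio that no library scale factor touches, was 86.2, 86.4 and 130 in WT and 159, 141 and 172 in Mtgr1 null on day 1. On day 3 it was 60.6, 53.6 and 61.0 against 118, 124 and 83.0. In enteroids the ratio was thus higher in each Mtgr1 null library than in any WT library of the same day, whereas in crypts the genotypes overlapped (63.0 to 77.9 and 71.9 to 102).

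Notch3, a receptor best known from vascular smooth muscle, was close to absent. Crypt counts were 1.92, 0 and 21.9 in WT and 7.53, 1.90 and 6.10 in Mtgr1 null, and the single high value was again WT mouse 3. The 0 stands for no read in that library, and a count of 0 allows up to 3 reads. Counts were 16.7 to 31.8 in WT and 17.6 to 22.8 in Mtgr1 null on day 1, and 19.7 to 24.2 against 13.9 to 54.6 on day 3. The differences were -0.18 (CI -0.98 to 0.61, adjusted p = 0.663) and 0.37 (CI -0.69 to 1.42, adjusted p = 0.511), intervals wide enough to hold large changes either way.

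Of the ligands, Dll4, a Delta ligand of crypt secretory cells and of endothelium, had the largest log2 fold change of the 10 in enteroids of both days. Its counts in crypts were 427, 333 and 281 in WT and 111, 160 and 183 in Mtgr1 null. On day 1 they were 339, 359 and 225 against 22.2, 45.5 and 18.8, and on day 3 293, 325 and 288 against 42.1, 49.7 and 37.1. WT means were 347, 308 and 302 in time order, while Mtgr1 null enteroids held 0.0935 of the WT mean on day 1 and 0.142 on day 3, with no overlap at any time. The log2 fold changes were -1.20 in crypts (CI -1.77 to -0.63, adjusted p = 0.0404), -3.45 on day 1 (CI -4.26 to -2.64, adjusted p = 0.000276) and -2.79 on day 3 (CI -3.17 to -2.41, adjusted p = 1.35e-05). The crypt call lay close to the threshold. It was lost without WT mouse 1 (-1.04, adjusted p = 0.164), WT mouse 2 (-1.22, 0.127), Mtgr1 null mouse 1 (-0.995, 0.0948), mouse 2 (-1.26, 0.0718) or mouse 3 (-1.35, 0.0604), and kept without WT mouse 3 (-1.34, adjusted p = 0.0469). The enteroid calls kept their side of the threshold in every alternative run.

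Transcripts of secretory cells were also lower in Mtgr1 null, and already so in fresh crypts. The summed count of 8 secretory progenitor and enteroendocrine markers was 5698 to 9119 in WT and 271 to 441 in Mtgr1 null crypts, 6534 to 9002 against 118 to 265 on day 1, and 8980 to 9535 against 159 to 393 on day 3, with 8, 7 and 8 of 8 called lower. Paneth markers were called lower for 1 of 6 in crypts and 6 of 6 on both days. In crypts their median log2 fold change was nonetheless -4.46, and groups did not overlap for 6 of 6 (limma, 6 at an unadjusted p below 0.05). None of either list was at 0 in all libraries of a table. Their part in the Dll4 difference was not tested. Endothelial sums were 58.5 to 230 in WT and 49.5 to 78.3 in Mtgr1 null crypts. They were 72.2 to 91.4 against 54.8 to 71.1 on day 1, lower in Mtgr1 null without overlap, and 78.9 to 113 against 47.7 to 81.9 on day 3, and Cdh5 was not listed on day 1 nor Kdr on either day. Of the endothelial markers, 0 of 3 tested passed in crypts and 1 of 2 was lower on each enteroid day, and their part in the Dll4 difference was not tested either.

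Dll1, the other Delta ligand, followed another course. Crypt counts were 881, 916 and 901 in WT and 942, 908 and 953 in Mtgr1 null, a difference of 0.055 (CI -0.13 to 0.24, adjusted p = 0.773) that the narrow spread bounded closely. On day 1 they were 1177, 1088 and 906 against 973, 723 and 1050, with overlap (log2 fold change -0.22, CI -0.59 to 0.16, adjusted p = 0.278). Scaled to equal totals the day 1 difference was -0.54 with an adjusted p of 0.00893. On day 3 counts were 1087, 1172 and 1209 against 788, 705 and 826, and every Mtgr1 null library lay below WT (log2 fold change -0.58, CI -0.80 to -0.37, adjusted p = 0.00123). The balance of the 2 Delta ligands shifted within libraries. Dll4 per 100 Dll1 counts was 48.5, 36.3 and 31.2 in WT crypts and 11.8, 17.6 and 19.2 in Mtgr1 null crypts. It was 28.8, 33.0 and 24.9 against 2.28, 6.30 and 1.79 on day 1, and 27.0, 27.7 and 23.8 against 5.34, 7.05 and 4.48 on day 3. No Mtgr1 null library reached the lowest WT library of its time, and 0.1 is the smallest p that an exact permutation test of 3 against 3 allows, so none was run.

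**Figure D2:**
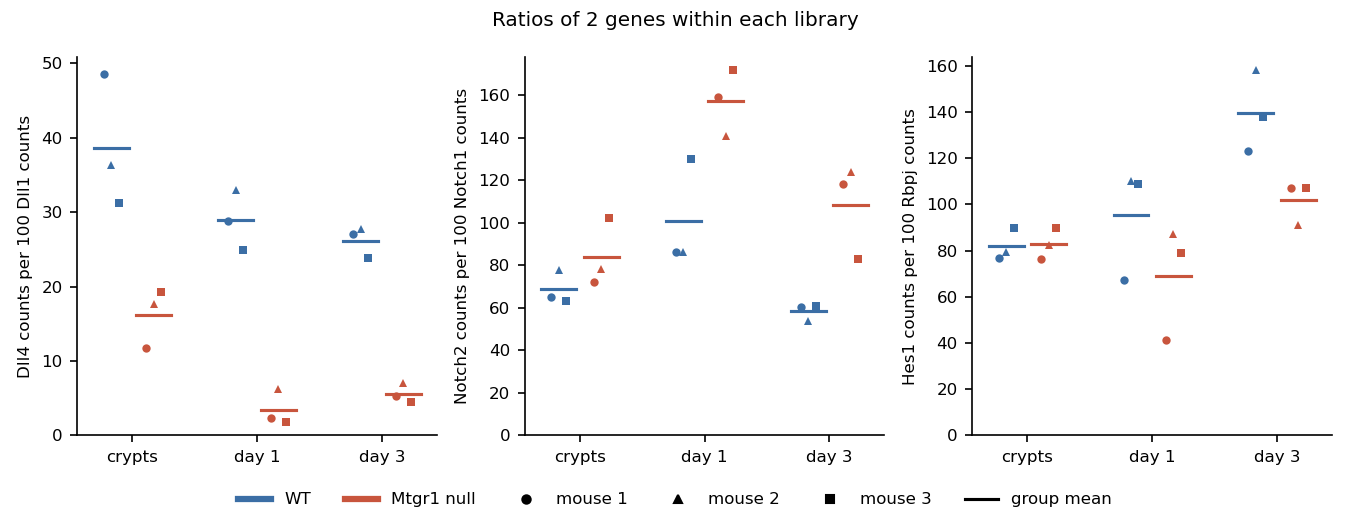
Counts of a gene per 100 counts of another in the same library (vertical axes, from 0) at the 3 times, WT in blue and Mtgr1 null in red, a point per library and a bar at the mean of 3. Dll4 per 100 Dll1 is lower in Mtgr1 null at each time (means 16.2, 3.45 and 5.62 against 38.7, 28.9 and 26.2 in WT), Notch2 per 100 Notch1 is higher in enteroids, and Hes1 per 100 Rbpj separates on day 3.

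Of the Jagged ligands, which also activate Notch, Jag1 passed at 1 of the 3 times and Jag2 at none. Jag1 counts were 371, 359 and 352 in WT crypts and 313, 241 and 268 in Mtgr1 null crypts (log2 fold change -0.40, CI -0.73 to -0.084, adjusted p = 0.169). On day 1 they were 486, 451 and 349 against 435, 604 and 271 (-0.034, CI -0.68 to 0.61, adjusted p = 0.925). On day 3 they were 542, 488 and 535 against 669, 717 and 602. Jag1 thus lay below WT in all Mtgr1 null crypts and above WT in all Mtgr1 null day 3 enteroids, and the day 3 difference passed (0.34, CI 0.11 to 0.58, adjusted p = 0.0205). That call rested on the scaling and on single libraries. It was lost at equal totals (0.14, adjusted p = 0.272), without WT mouse 2 (0.29, adjusted p = 0.0787) and without WT mouse 3 (0.36, adjusted p = 0.0519), with the direction kept.

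Jag2 counts were 54.6, 56.4 and 130 in WT crypts and 25.4, 20.9 and 35.6 in Mtgr1 null crypts, and the high WT value was the mouse 3 library. The difference of -1.43 (CI -2.42 to -0.45, adjusted p = 0.117) was -1.03 (adjusted p = 0.16) without it. DESeq2 on recovered reads called it (-1.56, adjusted p = 0.037). On day 1 counts were 83.2, 118 and 139 against 44.3, 125 and 24.3, where Mtgr1 null mouse 2 alone lay within the WT range. The difference was -1.09 (CI -2.34 to 0.16, adjusted p = 0.115) with it and -1.73 (adjusted p = 0.00313) without it. On day 3 counts were 200, 208 and 215 against 254, 264 and 146 (0.043, CI -0.47 to 0.56, adjusted p = 0.877), and the sign turned at equal totals (-0.16, adjusted p = 0.564).

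Rbpj, which carries the Notch signal to DNA, was lower in enteroids by a small and even margin. Counts in crypts were 998, 890 and 967 in WT and 902, 935 and 731 in Mtgr1 null, with overlap (log2 fold change -0.16, CI -0.44 to 0.13, adjusted p = 0.543). On day 1 they were 1197, 1135 and 1080 against 847, 825 and 839, and on day 3 1375, 1230 and 1199 against 969, 937 and 998. The groups stood apart on both days (-0.44, CI -0.64 to -0.25, adjusted p = 0.00306 on day 1, and -0.39, CI -0.58 to -0.19, adjusted p = 0.00527 on day 3). The annotation places 2 antisense genes within the span of Rbpj, and whether the counting used strand is not given in the sources used here.

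Hes1, the repressor that Notch switches on in absorptive progenitors, did not differ detectably in fresh crypts. Counts were 766, 706 and 868 in WT and 688, 770 and 656 in Mtgr1 null, with overlap and an interval of -0.42 to 0.13 around a log2 fold change of -0.14 (adjusted p = 0.569). Day 1 counts were 806, 1243 and 1178 against 349, 721 and 664, and in each genotype mouse 1 was the low library. On day 3 they were 1695, 1943 and 1660 against 1034, 854 and 1068. The groups stood apart on both days. The log2 fold change was -0.94 on day 1 (CI -1.61 to -0.27, adjusted p = 0.0236) and -0.84 on day 3 (CI -1.10 to -0.59, adjusted p = 0.000482). The day 1 call was lost without WT mouse 2 (-0.82, adjusted p = 0.0803) or WT mouse 3 (-0.86, adjusted p = 0.072), and without Mtgr1 null mouse 1 the size was -0.61 (adjusted p = 0.0403). Against Rbpj of the same library, Hes1 was 123, 158 and 138 per 100 in WT and 107, 91.2 and 107 in Mtgr1 null on day 3, apart from each other, while in crypts the groups overlapped at 76.8 to 89.8 and 76.2 to 89.7.

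Hes6, a family member known to oppose HES1 and expressed in secretory and enteroendocrine progenitors, had counts of 828, 909 and 850 in WT crypts and 853, 675 and 762 in Mtgr1 null crypts (log2 fold change -0.18, CI -0.45 to 0.087, adjusted p = 0.455). On day 1 counts were 1200, 1250 and 1152 against 714, 849 and 998, and on day 3 1357, 1504 and 1396 against 890, 1205 and 1007. Mtgr1 null libraries lay below WT on both days, by less than for Dll4 or Notch1 (-0.50, CI -0.80 to -0.21, adjusted p = 0.0109 on day 1, and -0.47, CI -0.74 to -0.20, adjusted p = 0.00984 on day 3). Hes1 per 100 Hes6 counts overlapped between genotypes in crypts and on day 1, and on day 3 it was 119 to 129 in WT and 70.9 to 116 in Mtgr1 null.

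**Figure D3:**
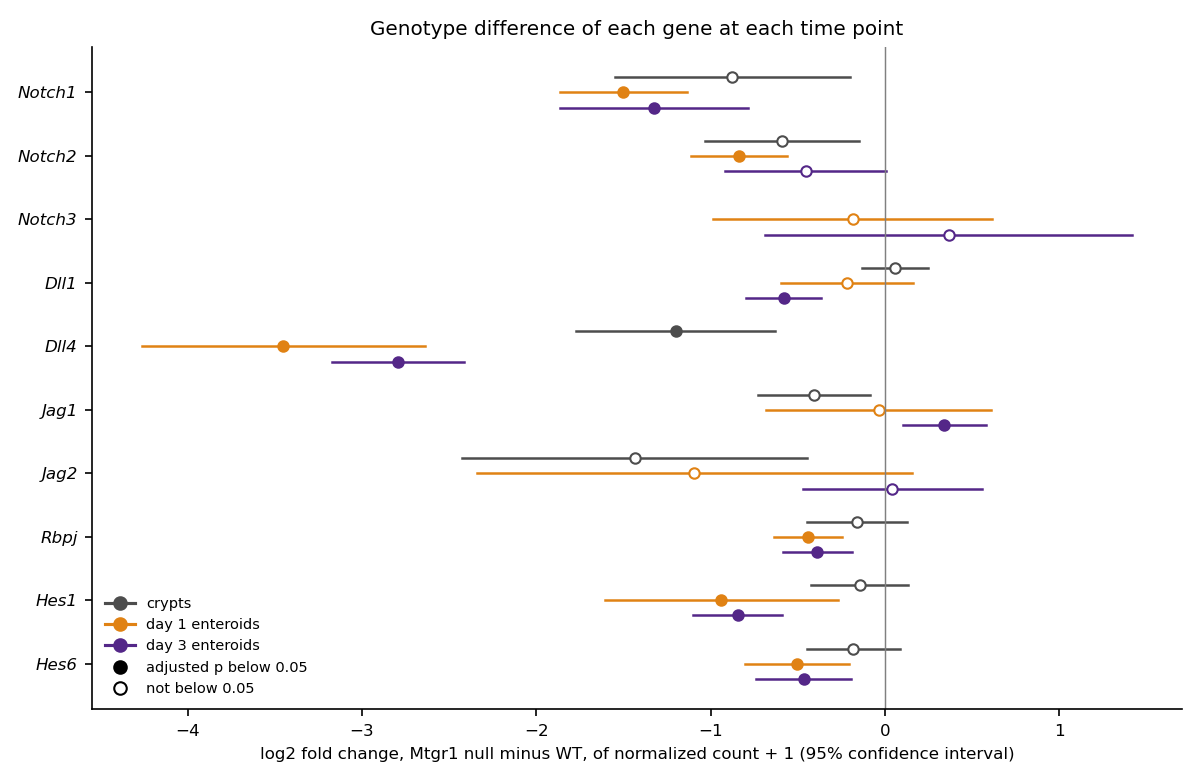
Log2 fold change of normalized count + 1, Mtgr1 null minus WT (horizontal axis), for each gene at each time, with the 95% confidence interval as a line. Filled points passed an adjusted p of 0.05. Dll4 is filled at all 3 times, from -1.20 to -3.45, Jag1 on day 3 is the sole filled point to the right of 0, and Notch3 was not tested in crypts.

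Whether the genotype difference itself changed after plating was tested with all 18 libraries in a single limma fit. From crypts to day 1, 1 of 9 members tested changed, against 41.4% of 12145 genes (27.4% without WT mouse 2). It was Dll4, whose difference moved by -2.25 (CI -3.11 to -1.38, adjusted p = 0.00156). Hes1 moved by -0.79 (CI -1.45 to -0.14) with an adjusted p of 0.0511, and the call was made at equal totals, where 5 members changed (Dll1, Dll4, Hes1, Hes6 and Rbpj) against 46.2% of genes. Hes1 also passed without Mtgr1 null mouse 2 (-0.92, adjusted p = 0.0257), and Rbpj without Mtgr1 null mouse 3 (-0.39, adjusted p = 0.0383). From crypts to day 3, 2 of 9 changed (3 at equal totals), against 31.6% of genes (33.8% at equal totals). That share was 14.0%, 13.6% and 16.6% without WT mouse 1, 2 or 3. The 2 were Dll4 (-1.59, CI -2.46 to -0.73, adjusted p = 0.0112) and Dll1 (-0.64, CI -1.01 to -0.27, adjusted p = 0.0146). Both were lost without WT mouse 2 (-1.52, adjusted p = 0.0597, and -0.64, adjusted p = 0.0642). Jag1 gave 0.75 (CI 0.12 to 1.38, adjusted p = 0.0657) and Jag2 1.48 (CI 0.076 to 2.88, adjusted p = 0.0964), and without Mtgr1 null mouse 3 both passed (0.80, adjusted p = 0.027, and 1.95, adjusted p = 0.0331). Notch1 gave -0.45 (CI -1.24 to 0.35, adjusted p = 0.376). Between day 1 and day 3, 0 of 9 changed in this fit, also 0 at an unadjusted p below 0.05, against 0.0329% of genes, and no other tool was run on this contrast. The share of all genes called was 7.24% without Mtgr1 null mouse 2, at most 0.00823% without any other mouse and 0.288% with mouse as a fixed block, and 0 of 9 members were called in each of these. The Dll4 interval there was -0.21 to 1.52 and that of Hes1 -0.56 to 0.75, wide enough to hold sizeable differences between the days.

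The rest of the pathway was described from 75 further genes listed by role. In crypts 8 of 65 tested were lower and 0 higher (limma, with 2 higher at an unadjusted p below 0.05, 0 by edgeR and 1 by DESeq2), and 5 were called without Mtgr1 null mouse 1. On day 1, 26 of 60 were lower and 16 higher, and on day 3, 26 of 63 were lower and 15 higher. As for the members, all genes were lower and higher at 3.15% and 1.58% in crypts, 28.9% and 30.0% on day 1 and 29.1% and 29.9% on day 3, which is also the background of each role described next. Their median log2 fold changes were -0.026, -0.0084 and -0.021, close to 0.0076, -0.0080 and 0.0026 over all genes. At equal totals the split was 32 lower and 12 higher on day 1 and 28 lower and 14 higher on day 3. Under that scaling all genes were lower and higher at 44.4% and 17.5% on day 1 and 39.8% and 21.6% on day 3. These shares are the background of the role counts given at equal totals below.

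Receptors, ligands, Notch modifiers and trafficking genes were lower more often than higher in count, 1 and 0 of 11 tested in crypts, 5 and 2 of 10 on day 1 and 6 and 2 of 11 on day 3. The crypt call was Neurl1b, a ubiquitin ligase of ligand uptake (1022 ± 137 in WT and 591 ± 34.3 in Mtgr1 null, SD, n = 3 each, adjusted p = 0.0174). Notch4, the receptor known from endothelium, was 47.7 ± 9.71 in WT and 15.4 ± 3.79 in Mtgr1 null on day 1 (log2 fold change -1.57, adjusted p = 0.00372) and 64.0 ± 6.01 against 24.0 ± 5.71 on day 3 (-1.40, adjusted p = 0.00214). In crypts it was 53.8 ± 20.4 against 32.8 ± 8.77 (adjusted p = 0.408). The Fringe enzymes add sugars to Notch and tune its choice of ligand. Lfng was lower on day 1 (213 ± 9.69 and 85.0 ± 11.0, log2 fold change -1.32, adjusted p = 0.000527) and on day 3 (-1.35, adjusted p = 0.0185). In crypts Lfng gave -0.026 (adjusted p = 0.984). Mfng, at low counts, gave -2.83 and -3.06 on the 2 days (adjusted p = 0.0174 and 0.00633). Dll3, a ligand-like protein that does not activate Notch on other cells, was 49.4 ± 3.40 in WT and 1.88 ± 2.34 in Mtgr1 null day 3 enteroids (adjusted p = 0.00057).

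Genes of receptor cleavage were called higher more often than lower in enteroids. None of 10 tested passed in crypts (limma, 0 at an unadjusted p below 0.05), 5 of 9 were higher and 1 lower on day 1, and 5 of 10 were higher and 0 lower on day 3. At equal totals these were 3 higher and 2 lower on day 1 and 4 higher and 1 lower on day 3. Furin, which makes the first cut in the receptor during its maturation, rose from 2321 ± 228 to 4707 ± 819 on day 1 (log2 fold change 1.01, adjusted p = 0.000846) and from 1820 ± 86.1 to 3829 ± 168 on day 3 (1.07, adjusted p = 2.63e-05). Subunits of gamma-secretase, the protease that releases the intracellular part, did not all go the same way, and the gene called lower on day 1 is a subunit. The subunit Ncstn rose by 0.73 on day 1 (adjusted p = 0.000979) and Aph1b by 0.98 on day 3 (adjusted p = 0.0134). The protease also cuts many other substrates.

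Nuclear partners were split. Of 8 coactivators, 3 were lower and 1 higher on day 1 and 3 lower and 2 higher on day 3. Kat2a, a histone acetyltransferase, fell on both days (log2 fold changes -1.09 and -0.66, adjusted p = 0.00117 and 0.00664), and its relative Kat2b rose (0.67 and 0.57, adjusted p = 0.00111 and 0.00312). Maml3 fell by 0.45 on day 1 (adjusted p = 0.0273), and Maml2, a Mastermind protein that bridges RBPJ to acetyltransferases, rose from 12.7 ± 5.64 to 46.7 ± 10.6 on day 3 (adjusted p = 0.0035). Of 13 corepressors tested, 6 were lower and 3 higher on day 1 and 5 lower and 1 higher on day 3, with 9 lower and 2 higher on day 1 and 6 lower and 1 higher on day 3 at equal totals. Tle3, a Groucho-type partner of HES proteins, fell on both days (-1.37 and -1.07, adjusted p = 0.00119 and 0.000318), as did the histone deacetylase Hdac2 (-0.91 and -0.78, adjusted p = 0.000308 and 0.000584). The corepressor Ncor1 rose by 0.60 on day 1 (adjusted p = 0.00227) and the Tle3 relative Tle4 by 0.52 on day 3 (adjusted p = 0.00333). No coactivator, corepressor or turnover gene passed in crypts (limma, 0, 0 and 4 at an unadjusted p below 0.05). Genes of Notch turnover and inhibition gave 4 higher and 2 lower of 9 on day 1 and 3 higher and 3 lower of 10 on day 3, and 3 higher and 4 lower on day 1 at equal totals. Of the Deltex genes, Dtx3l rose (1.3 and 1.06, adjusted p = 0.00256 and 0.000276) and Dtx4 fell (-0.97 and -0.96, adjusted p = 0.000385 and 0.00154). The ubiquitin ligase Itch rose by 0.66 on day 1 (adjusted p = 0.000928) and Dtx3 fell by 0.76 on day 3 (adjusted p = 0.0483).

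Other genes listed as targets were mostly lower in enteroids. Of 11 listed, 3 of 6 tested were lower in crypts, 4 of 5 on day 1 and 4 of 5 on day 3, with 1 higher on day 3. Nrarp, a feedback inhibitor induced by Notch, was 654 ± 37.5 in WT and 110 ± 22.7 in Mtgr1 null crypts (log2 fold change -2.59, adjusted p = 0.000872). On day 1 it was 679 ± 4.10 against 111 ± 7.67 (-2.61, adjusted p = 1.75e-05), and on day 3 801 ± 67.9 against 213 ± 16.5 (-1.90, adjusted p = 1.35e-05). Nrarp was therefore lower in fresh crypts in which Hes1 did not pass. Olfm4, a stem cell gene driven by Notch, gave -6.77, -11.59 and -9.14 in time order (adjusted p = 0.000621, 4.72e-06 and 1.91e-06), from WT means of 29968, 33173 and 75710. The cell cycle gene Ccnd1 fell by 1.29 in crypts (adjusted p = 0.0435, and 0.0557 at equal totals) and by 1.59 on day 1 (adjusted p = 0.00417), and Hes2 rose by 1.24 on day 3 (50.4 ± 2.67 to 127 ± 54.6, adjusted p = 0.00621). Hes5 and Hey1, common Notch readouts in other tissues, had group means of at most 5.22 and were not tested.

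**Figure D4:**
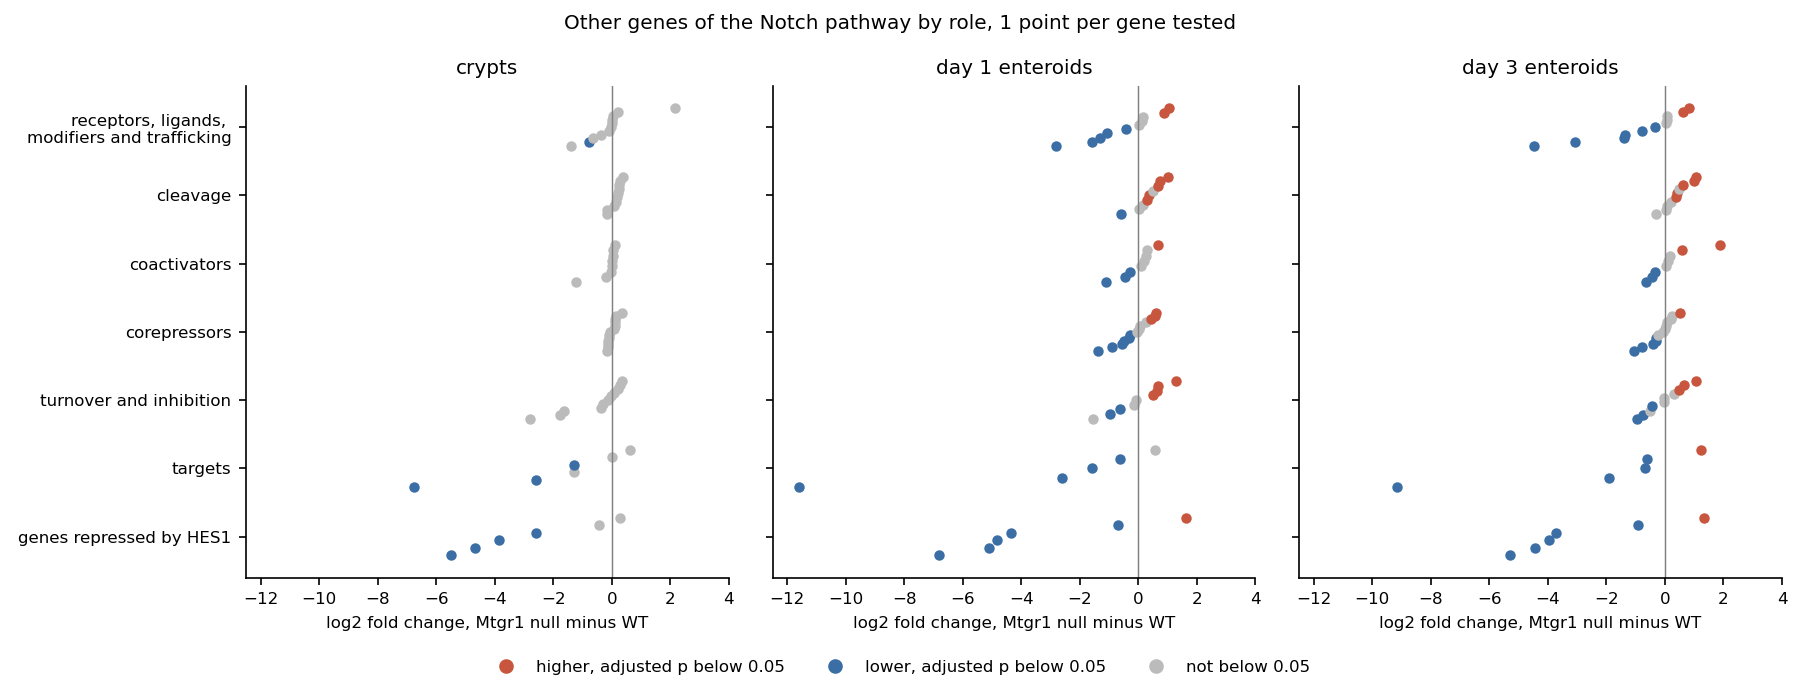
Log2 fold change, Mtgr1 null minus WT (horizontal axis), of each further pathway gene tested, in rows by role, with a panel for each time. Red points were higher and blue points lower at an adjusted p below 0.05. Cleavage genes lie mostly right of 0 on days 1 and 3, and genes listed as targets or as repressed by HES1 reach from -11.59 to 1.61 on day 1.

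Genes listed as repressed by HES1, directly or through other factors and mostly of the secretory lineage, were lower in most cases. Of 7 listed, 4 of 6 tested were lower in crypts, 5 of 6 on day 1 and 5 of 6 on day 3, and 0, 1 and 1 were higher. Atoh1 was 290 ± 47.4 in WT and 12.4 ± 7.47 in Mtgr1 null crypts (log2 fold change -4.66, adjusted p = 0.00568), 366 ± 10.4 against 17.0 ± 12.9 on day 1 (adjusted p = 0.00113) and 282 ± 24.6 against 12.4 ± 3.89 on day 3 (adjusted p = 1.05e-05). Neurog3, the switch to enteroendocrine fate, was 102 ± 13.0 against 1.63 ± 1.47 in crypts (adjusted p = 0.00471), 263 ± 44.0 against 1.68 ± 1.49 on day 1 (adjusted p = 0.000106) and 254 ± 36.6 against 6.31 ± 3.78 on day 3 (adjusted p = 5.91e-05). Spdef, a factor of goblet and Paneth maturation, gave -3.86, -5.10 and -3.98 (adjusted p = 0.00542, 9.15e-05 and 1.12e-05).

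Transcripts of other cell types were described in the same way. Crypt base stem cell markers summed to 36784 to 46180 in WT and 6076 to 12482 in Mtgr1 null crypts, with 1 of 7 called lower and a median log2 fold change of -0.29. Olfm4 made up most of the WT sum, and without it the crypt sums of the other 6 were 13148, 11630 and 11111 in WT and 9063, 12187 and 5943 in Mtgr1 null, with overlap. In enteroids the 7 summed to 45765 to 132520 against 5429 to 14893, with 7 of 7 lower on day 1 and 6 of 7 on day 3. Enterocyte markers overlapped in crypts (0 of 7 called) and were higher for 7 of 7 on both days, with sums of 69028 to 135420 in WT and 244860 to 524790 in Mtgr1 null enteroids. Goblet markers were lower for 6 of 6 listed genes tested at each time, with Muc2 not analysed here. Tuft markers summed to 1309 to 1430 in WT and 1890 to 6233 in Mtgr1 null crypts (0 of 5 called) and were lower for 4 of 5 on each enteroid day. Fibroblast markers were too low to test at any time, and mural markers had 1 of 7 tested at each, called higher on day 1 alone. Leukocyte markers summed to 46.9 to 206 in WT and 36.0 to 345 in Mtgr1 null on day 1 (1 of 4 tested called higher). On day 3 they summed to 17.0 to 27.1 against 51.7 to 345, without overlap (1 of 3 tested called higher). The part of these differences in cell makeup in the values of the Notch genes was not tested.

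The genes most alike in pattern were found by Pearson correlation over the 18 libraries, after the mean of each table was taken off, among 10588 genes with a mean of at least 50 in all 3 tables. As genotype separates most of these libraries, a high correlation is shared by many genes and is given as a description. For Dll4 they were L1cam (0.989), Lgals12 (0.984) and Adra2a (0.978). For Notch1 they were Prkd3 (0.979), Jade2 (0.974) and Tgfbr1 (0.964), and for Rbpj Ncapd3 (0.965), Slc12a2 (0.96) and Npat (0.953). Hes1 was closest to 1810014B01Rik (0.956), Ppt2 (0.954) and Xrcc1 (0.945), and Notch2 to Tbc1d16 (0.944), Mycbp2 (0.932) and Filip1l (0.927). Weaker values led for Hes6 (Upf3a, 0.908), Dll1 (Nck2, 0.902), Jag1 (Zfp870, 0.882) and Jag2 (Socs5, 0.845). Among the members, Notch1 went with Rbpj (0.924) and Notch2 (0.912), and with the mean of each group of 3 taken off instead these were 0.631 and 0.747. Dll4 and Notch1 gave 0.857 over the tables and -0.166 within groups, so their likeness lay between the genotypes and not among mice of a group. Jag1 and Jag2 gave 0.615 and 0.604, alike on both measures.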

How the data were processed

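RNA of 18 libraries was sequenced after stranded mRNA library preparation. Per the labels, the authors trimmed reads with fastp 0.20.0, quantified them with Salmon 1.3.0 and used DESeq2 1.26.0. They deposited a table per time point whose signal values are normalized counts, estimated gene counts divided by 1 size factor per library. Their own fold changes and p-values stand beside these and were not used. Tables were normalized separately and carry no per-gene length correction. In every library 100% of values were whole multiples of a single step (tolerance 1e-06), so whole reads were recovered, and count tests were run on them as alternatives. In 2 libraries that step lies near 1, and their recovery rests on these multiples alone.

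Genotypes were compared within each table with limma 3.58.1 (R 4.3.3, eBayes with trend) on log2(normalized count + 1) for genes with a mean of at least 10, two-sided, with Benjamini-Hochberg adjustment over all genes tested and a threshold of 0.05. Fold changes are on that scale and understate those of low genes. The change of the genotype difference used all 18 libraries with mouse as a random effect (consensus correlation -0.00481). Fits were tested on simulated data with equal biological spread for all genes and no mouse effect. The real libraries are less even, so that test checks the code and not the error rates here. Intervals are 95%. Alternatives were other pseudocounts, filters, scalings and weights, a replicate block, each library left out, edgeR 4.0.16 and DESeq2 1.42.0. Gene positions and exon lengths came from GENCODE vM21 (GRCm38), whose gene identifiers with versions match the tables.

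Mouse numbers are shared by the genotypes in the labels. After group means were taken off, WT and Mtgr1 null libraries that share a number correlated across genes at 0.116, 0.231 and 0.216 on day 1, at 0.0764, 0.274 and 0.346 in crypts, and at -0.00666, -0.00226 and -0.0156 on day 3. Libraries of the 2 genotypes with different numbers gave -0.19 to -0.0152 on day 1, -0.302 to 0.201 in crypts and -0.0967 to 0.105 on day 3. Each same-numbered pair exceeded 0.1 on day 1 alone, though crypt and enteroid libraries come from the same mice. The paper describes the genotypes as littermates, and the labels name no litters. Whether same-numbered mice of the genotypes were paired was therefore not settled. Under the replicate block, 6 members were called on day 1, as without it, where 63.8% of all genes were called under it and 58.9% without it. In crypts 0 members were called under it and 1 without it, against 4.33% and 4.73% of all genes.

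The 10 members and all lists were chosen with earlier results of these data known. All members are named. Of other pathway genes, at most the 3 called genes with the largest fold change per role and time are named, with Atoh1, Neurog3, Nrarp, Lfng, Hes5, Hey1, Notch4 and Olfm4 always allowed. The 3 most alike genes per member are named, or the first where the text gives 1.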

Additional observations from a re-analysis of the deposited data

Results flagged for a closer look

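The genotype difference of Dll4 changed between crypts and day 1 enteroids by -2.25 on the log2 scale (adjusted p = 0.00156 in the limma fit of all 18 libraries), and between crypts and day 3 enteroids by -1.59 (adjusted p = 0.0112). That of Dll1 changed between crypts and day 3 enteroids by -0.64 (adjusted p = 0.0146). They are listed because the effect of genotype differed between time points by a test of the difference itself, and both day 3 changes missed the threshold without WT mouse 2.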

How the results depend on the processing

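Of 1020 recomputed values, 815 values of single genes and 130 counts kept their direction and side of the threshold, or stayed within 1.5 times, while 21 gene values newly passed the threshold, 15 missed it, 22 turned in sign and 17 counts moved further. The number of members called in crypts, 1, became 0 with quantile normalization, 0 with no variance trend and 0 with a replicate block, and 3 with array weights and 3 with DESeq2. The share of all genes called, 4.73%, was 4.51%, 4.25%, 4.33%, 16.2% and 10.6% in that order. The number of members ran from 0 to 1 with each library left out, against 1.35% to 4.67% of all genes. The call was kept only without WT mouse 3. The adjusted p of Dll4 there ranged from 0.000574 to 0.164 over the alternatives. Called genes of the wider pathway in crypts, 8, became 14 with array weights and ran from 5 to 8 with each library left out, beside the same shares of all genes. Members whose genotype difference changed from crypts to day 1, 1, became 5 at equal totals, where 46.2% of all genes changed in place of 41.4%. They ran from 1 to 2 with a mouse left out, against 27.4% to 45.7% of all genes. From crypts to day 3, the 2 members became 3 at equal totals (33.8% of all genes). They ran from 0 without WT mouse 2 (13.6%) to 4 without Mtgr1 null mouse 3 (30.6%). The cause of these moves was not tested.

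With the replicate block, the paired fit called 0, 6 and 8 members in time order, against 4.33%, 63.8% and 57.0% of all genes. It dropped Dll4 in crypts (adjusted p = 0.0835) and added Notch2 on day 3 (adjusted p = 0.0326). It changed no member call on day 1. Whether same-numbered mice of the genotypes were paired was not settled for crypts or for enteroids. The crypt call of Dll4 therefore depends on leaving the block out.

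The values that turned in sign belonged to genes that missed the threshold in the reported comparison. On day 1, Notch3 was 0.077 with quantile normalization and ran from -0.39 to 0.061 with a library left out. Jag1 there was 0.090 with quantile normalization, 0.0041 by edgeR and 0.025 by DESeq2, and ran from -0.30 to 0.27. On day 3, Notch3 ran from -0.096 to 0.85, and Jag2 was -0.43 with array weights (adjusted p = 0.0358) and -0.16 at equal totals, and ran from -0.11 to 0.32. The changed difference of Jag2 from crypts to day 1 was -0.0010 at equal totals and ran from -0.46 to 1.07, and that of Notch2 from crypts to day 3 was -0.092 at equal totals and ran from -0.037 to 0.37. From day 1 to day 3, Notch1 ran from -0.094 to 0.56, Hes1 from -0.27 to 0.39 and Hes6 from -0.075 to 0.17.

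Depth limits Notch3 and, in Mtgr1 null enteroids, Dll4, whose lowest library held 17 reads on day 1 and 33 on day 3. It also limits Jag2, whose lowest library held 22 reads in crypts and 22 on day 1. With 3 mice a group, an exact permutation test cannot go below 0.1.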
